A study of Homo sapiens with 6 samples.

Results

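The genes described here are the metallothioneins MT2A, MT1E, MT1F, MT1G and MT1X, the zinc-sensing transcription factor MTF1, and the zinc transporters SLC30A1 and SLC39A10. They were chosen by name, 8 genes in all, and 7 of the 8 were found among the 26704 genes of the expression tables. MT1G was not analysed here. The lowest mean of any of the 7 genes in any table was 413 normalised reads (MT1X, VEM table), so none was too low to judge at a minimum mean of 10.

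The samples were 6 poly-A RNA libraries of SKM-1, an established human acute myeloid leukaemia line. The BOR group held 2 libraries, the VEM group 1 library, the VEM+BOR group 1 library and the untreated group 2 libraries. VEM stands for vemurafenib, the RAF kinase inhibitor named in the series title, and the labels do not spell out BOR. The labels state no dose, exposure time or vehicle, and nothing in them says that replicate libraries are separate cultures. The p-values below therefore measure only how far these libraries spread, and that spread may be technical.

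Metallothioneins are very small proteins rich in cysteine that bind zinc, copper and cadmium, and their human genes lie together on chromosome 16. When free zinc rises in the cell, MTF1 binds short DNA motifs called metal response elements and activates metallothionein genes and SLC30A1, which exports zinc across the plasma membrane. SLC39A10 imports zinc, and in mouse and zebrafish its gene is known to be repressed by MTF1. Metallothionein RNA is therefore widely used as a readout of metal load, and it is also induced by glucocorticoids and by other forms of stress.

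The metallothionein coding sequences show how alike the counted transcripts are. They are given 5′ to 3′ from GENCODE release 29 (GRCh38), with the cysteine codons in capitals. All are on the plus strand, MT2A at chr16:56608656-56609354, MT1E at chr16:56625852-56626971, MT1F at chr16:56658059-56659164 and MT1X at chr16:56682541-56684049, and each is joined from 3 exons.
MT2A: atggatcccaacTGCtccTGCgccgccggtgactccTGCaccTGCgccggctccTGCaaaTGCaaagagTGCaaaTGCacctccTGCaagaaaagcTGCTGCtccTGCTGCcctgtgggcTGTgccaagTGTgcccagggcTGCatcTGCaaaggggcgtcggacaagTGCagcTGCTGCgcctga
MT1E: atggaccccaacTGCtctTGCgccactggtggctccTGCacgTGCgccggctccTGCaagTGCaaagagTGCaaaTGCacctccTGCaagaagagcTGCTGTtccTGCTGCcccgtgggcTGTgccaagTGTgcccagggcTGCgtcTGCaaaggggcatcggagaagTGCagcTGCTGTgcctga
MT1F: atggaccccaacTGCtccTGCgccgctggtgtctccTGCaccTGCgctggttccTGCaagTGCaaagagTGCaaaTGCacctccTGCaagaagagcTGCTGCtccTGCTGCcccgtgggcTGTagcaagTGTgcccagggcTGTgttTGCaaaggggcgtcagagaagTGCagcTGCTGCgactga
MT1X: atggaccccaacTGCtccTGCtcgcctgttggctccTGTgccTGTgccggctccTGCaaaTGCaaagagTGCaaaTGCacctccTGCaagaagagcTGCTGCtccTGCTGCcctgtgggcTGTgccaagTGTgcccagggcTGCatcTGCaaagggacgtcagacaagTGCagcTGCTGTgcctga
Each sequence is 186 bases long and has 20 cysteine codons among its 61 codons before the stop. MT1E, MT1F and MT1X were identical to MT2A at 92.5%, 91.4% and 92.5% of aligned bases. The longest identical stretch between the MT2A transcript and another of these transcripts was 63 bases, with MT1X, and among all pairs with MT1L included no stretch was longer. Reads were 150 bases long, more than any of these stretches, but no source used here states how reads matching several of the genes were assigned. Levels of single MT1 genes are therefore uncertain, and their sum is given beside them.

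The DNA before the transcription start shows where metal response elements could lie. The core motif searched was TGCACNC or TGCGCNC, on both strands, in RefSeq promoter windows (GRCh38.p14) of 250 bases before to 50 bases after the start. Windows were found for 5 of the genes, and MT1E and MT1F were not analysed for motifs here. The 250 bases before the start are given on the gene's strand, with the motif in capitals, for the 3 genes whose windows held more than 1 match: MT2A at chr16:56608334-56608583 (plus strand), MT1X at chr16:56682220-56682469 (plus strand) and SLC30A1 at chr1:211579162-211579411 (minus strand).
MT2A: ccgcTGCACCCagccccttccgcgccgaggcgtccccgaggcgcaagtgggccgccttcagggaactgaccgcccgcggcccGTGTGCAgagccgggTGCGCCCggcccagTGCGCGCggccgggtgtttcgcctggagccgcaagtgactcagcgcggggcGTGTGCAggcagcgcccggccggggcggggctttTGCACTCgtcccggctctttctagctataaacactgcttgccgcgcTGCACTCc
MT1X: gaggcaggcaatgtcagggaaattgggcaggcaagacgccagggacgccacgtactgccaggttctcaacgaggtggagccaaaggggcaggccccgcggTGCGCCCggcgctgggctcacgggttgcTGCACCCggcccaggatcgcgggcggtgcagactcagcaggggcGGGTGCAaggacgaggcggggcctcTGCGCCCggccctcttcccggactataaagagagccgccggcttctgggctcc
SLC30A1: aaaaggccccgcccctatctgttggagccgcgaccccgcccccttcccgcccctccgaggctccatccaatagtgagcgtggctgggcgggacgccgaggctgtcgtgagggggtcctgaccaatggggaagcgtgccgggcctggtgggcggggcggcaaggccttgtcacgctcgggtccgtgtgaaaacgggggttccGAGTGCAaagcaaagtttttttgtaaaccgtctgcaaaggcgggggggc
The MT2A window held 8 matches, 7 of them in the bases shown, and 0.0199% of 35116 promoter windows held at least 8. The MT1X window held 4 matches, all in the bases shown, and 0.601% of windows held at least 4. The SLC30A1 window held 2 matches, 1 of them in the bases shown, and 8.60% of windows held at least 2. SLC39A10 has a pair of annotated starts, and the single match in its windows began at base 34 after 1 of them, where 29.6% of windows held at least 1. The MTF1 window held 0 matches. No matches overlapped each other, and a match is a description of the letters, not evidence of binding.

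Depth was even, at 17370791 to 18507606 reads over genes in the 5 libraries whose reads could be recovered and checked. The VEM values sum to 17252404 if each step is taken as 1 read, which could not be checked. Of 12 myeloid markers, 11 were analysed here and all 11 had a mean of at least 10, whereas sums for the B cell, megakaryocyte, epithelial and fibroblast markers analysed stayed between 3.62 and 147 normalised reads. The summed myeloid markers stood at 132575 and 161389 in the BOR libraries, 64909 in VEM and 56815 in VEM+BOR, against 124952 and 142806 in the untreated libraries. This sum rests largely on MPO, ELANE, PRTN3 and AZU1. These genes and CEBPA were below both untreated libraries in both VEM-containing libraries. CD33, SPI1, PTPRC, ANPEP, LYZ and CSF3R were not below in both, so the lower sum does not describe the myeloid markers as a whole. The part of this lower sum in the values of the VEM-containing libraries was not tested. The BOR libraries stood apart from each other: over 15438 genes, their log2 differences had an SD of 1.53, against 0.684 for the untreated pair. Changes in BOR are therefore also given without each BOR library. Levels below are normalised read counts on 1 scale for all 6 libraries, and tests used limma within the table of each comparison, with Benjamini-Hochberg adjustment over all genes tested and a threshold of 0.05. In these tests the single VEM and VEM+BOR libraries were assumed to vary like the untreated pair. Fits with an untreated library left out assumed that they vary like the BOR pair instead. The 2 untreated libraries serve all 3 comparisons, so the comparisons are not independent. In bulk RNA, fewer cells that express a gene and less RNA per cell cannot be told apart.

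MT2A was the most abundant of the genes and one of the most abundant transcripts in these cells. It stood at 13046 and 18902 normalised reads in the BOR libraries, 20154 in the VEM library and 23248 in the VEM+BOR library, against 11956 and 14681 in the untreated libraries. Both libraries that received VEM were above both untreated libraries, as were 30.3% of all genes in VEM and 30.1% in VEM+BOR. The BOR libraries lay either side of untreated 2, an order that rests on the scaling, which lowered BOR 1 and raised BOR 2. On recovered reads the BOR libraries had 14282 and 14171, against 13651 and 15173 in the untreated libraries. Per kilobase of gene length, MT2A ranged from 9204 in untreated 1 to 17897 in VEM+BOR, and it ranked between 21st and 75th of 23519 genes in each library. The VEM+BOR level was 1.75-fold and the VEM level 1.51-fold the untreated mean of 13318 ± 1927 (SD, n = 2), both gaps being larger than that SD. The BOR mean of 15974 ± 4141 (SD, n = 2) differed from the untreated mean by less than the SD of the BOR pair. No single library has a spread of its own, so the order of VEM+BOR above VEM cannot be set against replicate error.

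The MT2A differences did not pass the test. The log2 change was 0.25 (SE 0.48, adjusted p = 0.968) for BOR, 0.60 (SE 0.51, adjusted p = 1.0) for VEM and 0.80 (SE 0.52, adjusted p = 1.0) for VEM+BOR in limma. The 95% interval for VEM+BOR ran from -0.29 to 1.88 and that for VEM from -0.48 to 1.67, so both zero and a change of over 2-fold lie within them. The BOR value turned to -0.049 with values scaled to column totals, a scaling that moved the median of all genes to -0.26, against 0.04 with the deposited scaling. Relative to that median it was 0.21 under both scalings.

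**Figure D1:**
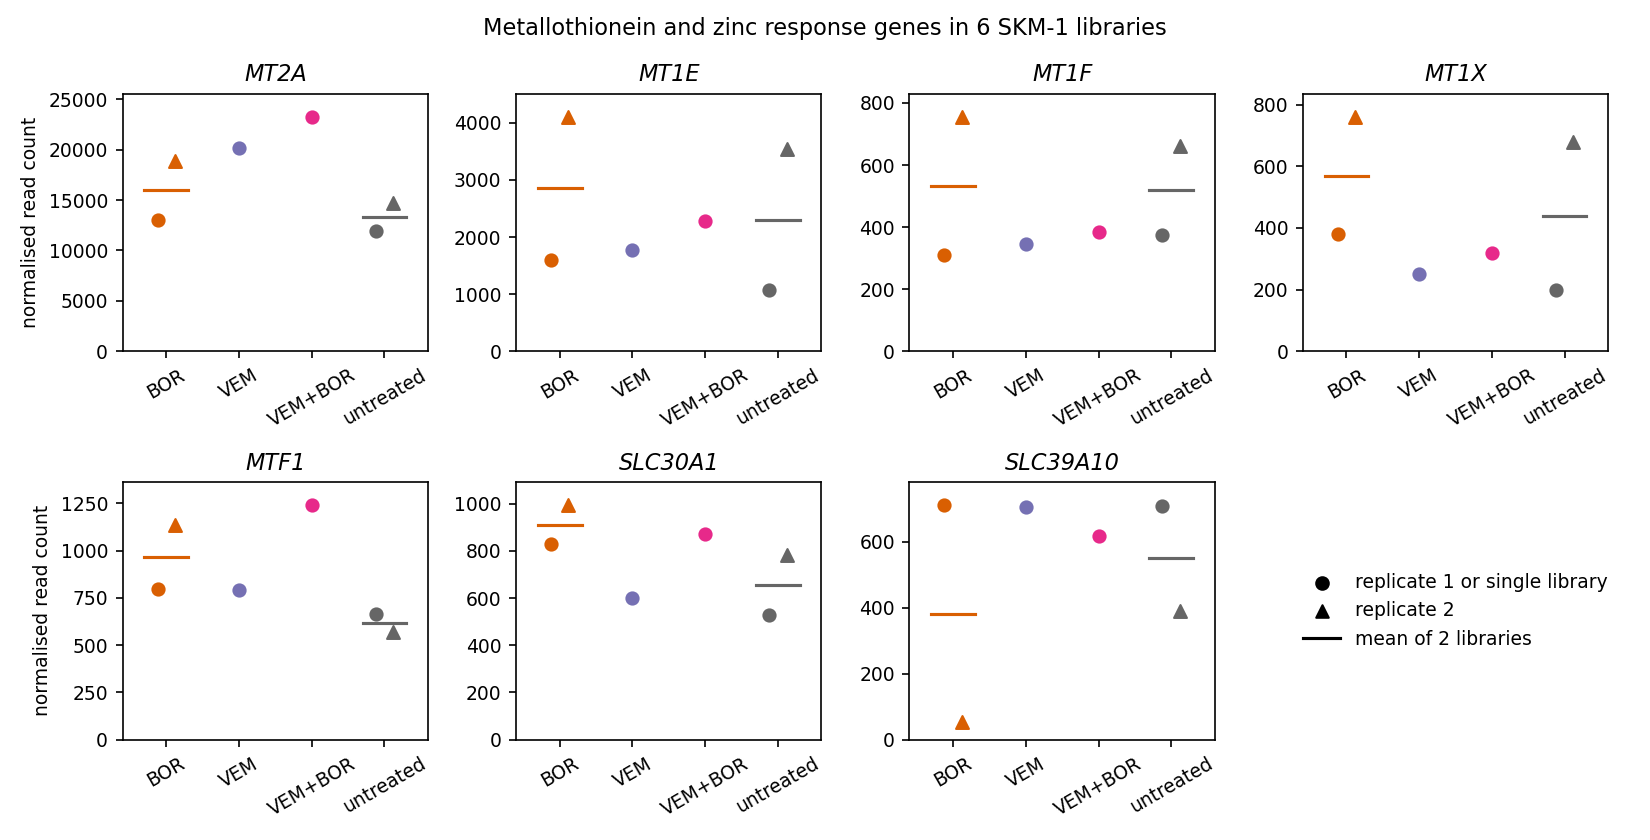
Normalised read count (vertical axis, from 0, on 1 scale for all libraries) of 7 metallothionein and zinc response genes in BOR, VEM, VEM+BOR and untreated libraries. Circles are replicate 1 or a single library, triangles replicate 2, and lines the mean of 2 libraries. MTF1 is above both untreated libraries in all 4 treated libraries, a pattern whose share over all genes was not counted. MT1E, MT1F and MT1X are highest in BOR 2 and untreated 2, and SLC39A10 is low in BOR 2 alone.

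The MT1 genes had a different pattern from MT2A, with wide gaps inside the groups. Per kilobase of gene length, MT1E ranged from 1016 to 3901 normalised reads over the libraries, above MT1F with 165 to 400 and MT1X with 112 to 429. Before that division, MT1E stood at 1599 and 4104 normalised reads in the BOR libraries, 1782 in VEM and 2278 in VEM+BOR, against 1069 and 3538 in the untreated libraries. MT1X stood at 379 and 760 in the BOR libraries, 252 in VEM and 320 in VEM+BOR, against 199 and 679 in the untreated libraries. For both genes every treated library lay within or above the wide untreated range, and BOR 2 and untreated 2 were the highest of the 6 libraries. MT1F, which lies between them on the chromosome, stood at 311 and 755 in the BOR libraries, 345 in VEM and 383 in VEM+BOR, against 375 and 663 in the untreated libraries. VEM and BOR 1 were the lowest for MT1F, and BOR 2 and untreated 2 again the highest. In the numbering of the sample titles, untreated 2 and BOR 2 come last, after all other libraries, both VEM-containing ones included. The labels do not say what that numbering means. Its part in the MT1 values was not tested and cannot be told from spread inside the groups.

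Between the untreated libraries, MT1E was 3.31-fold and MT1X 3.42-fold as high in untreated 2 as in untreated 1. On the log2 scale these gaps were 1.73 and 1.77, and 99.7% of 15438 genes had a lower difference in that direction for each. MT1F had a gap of 0.82, above 95.2% of genes. In the BOR pair the log2 gaps were 1.36 for MT1E, 1.27 for MT1F and 1.0 for MT1X, above 90.1%, 88.5% and 82.2% of genes, in a pair where differences were wider for all genes. MT2A differed much less, by 0.53 between BOR 2 and BOR 1 and by 0.30 between untreated 2 and untreated 1.

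**Figure D2:**
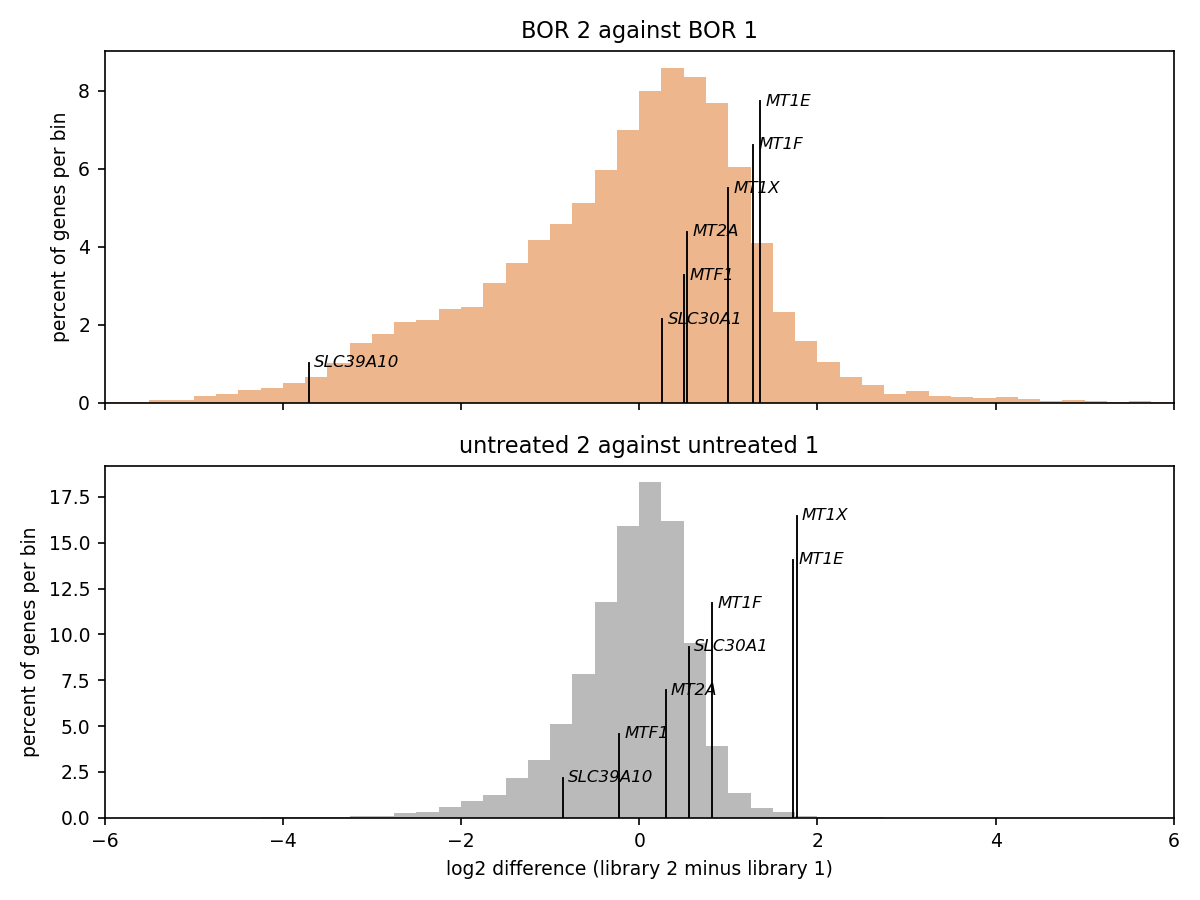
Distribution over 15438 genes of the log2 difference between the libraries of a group (horizontal axis, library 2 minus library 1), as percent of genes per bin (vertical axis), with BOR above and untreated below. Lines mark the 7 genes at heights chosen for legibility. MT1E at 1.73 and MT1X at 1.77 lie at the far right of the untreated pair, and SLC39A10 at -3.71 lies at the left of the BOR pair.

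The mix of metallothionein RNA therefore differed between libraries of the same group. For every 100 MT2A reads there were 17.5 and 29.7 reads of MT1E, MT1F and MT1X together in the BOR libraries, 11.8 in VEM and 12.8 in VEM+BOR, against 13.7 and 33.2 in the untreated libraries. MT1E alone gave 12.3 and 21.7 in the BOR libraries, 8.84 in VEM and 9.80 in VEM+BOR, against 8.94 and 24.1 in the untreated libraries. The summed ratio in both VEM-containing libraries was below both untreated libraries, but by little compared with the gap inside the untreated pair. MT2A made up 85.1% and 77.1% of the 4 metallothioneins in the BOR libraries, 89.4% in VEM and 88.6% in VEM+BOR, against 87.9% and 75.1% in the untreated libraries. This ratio is taken within a library, so it does not depend on the scaling between libraries.

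**Figure D3:**
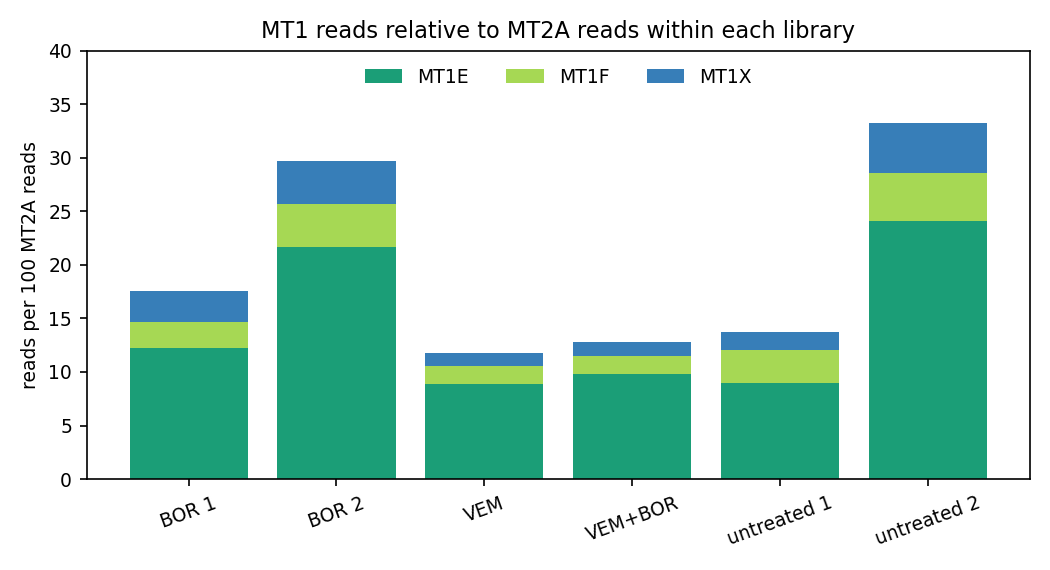
Reads of MT1E, MT1F and MT1X per 100 MT2A reads (vertical axis, stacked bars from 0) in each of the 6 libraries. The stacks reach 29.7 in BOR 2 and 33.2 in untreated 2, against 11.8 to 17.5 in the other 4 libraries.

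None of the MT1 genes passed the test in any comparison. In limma the log2 changes of MT1E were 0.40 for BOR, -0.13 for VEM and 0.22 for VEM+BOR. Those of MT1X were 0.55, -0.55 and -0.22 in the same order, and those of MT1F were -0.04, -0.54 and -0.39. Adjusted p-values were 0.968 to 1.0. On recovered reads MT1E in BOR was 0.21 with edgeR, and MT1X in VEM+BOR was -0.50 with edgeR and -0.48 with DESeq2. The sum of the 3 MT1 genes had log2 ratios to the untreated mean of 0.28 for BOR, -0.47 for VEM and -0.15 for VEM+BOR. The sum of all 4 metallothioneins had log2 ratios of 0.27, 0.43 and 0.65, against an SD of 0.38 between the untreated libraries. The untreated library used set the direction for MT1E and MT1X: in VEM+BOR, MT1E was at -0.63 without untreated 1 and at 1.09 without untreated 2.

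Over the 6 libraries the MT1 genes moved with each other more than with MT2A. Pearson's r of log2 values was 0.927 for MT1X and MT1E, 0.861 for MT1F and MT1E, and 0.850 for MT1X and MT1F. With MT2A it was 0.459 for MT1E, 0.127 for MT1F and 0.133 for MT1X. MT2A was closer to MTF1, at 0.741, and SLC30A1 was at 0.773 with MT1E and 0.796 with MT1X. These values describe 6 libraries of 4 groups, all genes share the libraries' scaling, and the MT1 genes also share sequence. The protein-coding genes most like the metallothionein sum over the 6 libraries, of 11282 compared, were STX1A (r = 0.987), OGG1 (0.984), KDELC1 (0.979), TMEM79 (0.978) and VAPA (0.976), and 60 genes had an r above 0.9. STX1A, a membrane fusion protein of secretory vesicles, stood at 56.6 and 139 normalised reads in the BOR libraries, 104 in VEM and 147 in VEM+BOR, against 48.2 and 76.4 in the untreated libraries. OGG1, a DNA repair glycosylase for oxidised guanine, stood at 430 and 519 in the BOR libraries, 485 in VEM and 510 in VEM+BOR, against 401 and 472 in the untreated libraries.

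MTF1, the transcription factor that senses zinc, had higher levels in every treated library than in either untreated library, without passing the test. It is annotated at chr1:37809567-37859620 on the minus strand. It stood at 799 and 1134 normalised reads in the BOR libraries, 791 in VEM and 1238 in VEM+BOR, against 666 and 569 in the untreated libraries. VEM+BOR and BOR 2 were the highest, and the lowest treated library, VEM, was still above untreated 1. Over all genes, 11.7% had both BOR libraries above both untreated libraries, 30.3% had VEM above both and 30.1% had VEM+BOR above both. The share of genes with every treated library above both was not counted, and the same untreated libraries enter each of these shares. The VEM+BOR level was 2.01-fold the untreated mean of 617 ± 68.4 (SD, n = 2), the BOR mean of 967 ± 237 (SD, n = 2) was 1.57-fold and the VEM level was 1.28-fold. From high to low the order was VEM+BOR, BOR, VEM and untreated, and the gap between BOR and VEM was smaller than the SD of the BOR pair.

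In limma the log2 change of MTF1 was 0.63 (SE 0.46, adjusted p = 0.968) for BOR, 0.36 (SE 0.38, adjusted p = 1.0) for VEM and 0.99 (SE 0.37, adjusted p = 0.988) for VEM+BOR. The VEM+BOR interval ran from 0.22 to 1.77 with an unadjusted p of 0.0144, and the change did not pass after adjustment. Of all genes tested in that comparison, 3.0% had a higher change. The authors' deposited table for VEM+BOR gives MTF1 a log2 fold change of 0.99 with p = 0.0156 and an adjusted p of 1.0, and MT2A a log2 fold change of 0.79 with p = 0.0351 and an adjusted p of 1.0. MTF1 kept a positive change under every alternative run, at 0.89 to 1.12 for VEM+BOR with adjusted p of 0.595 to 1.0, at 0.33 to 0.88 for BOR and at 0.25 to 0.48 for VEM.

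SLC30A1, the zinc exporter of the plasma membrane, is annotated at chr1:211571568-211578742 on the minus strand. It stood at 828 and 992 normalised reads in the BOR libraries, 601 in VEM and 872 in VEM+BOR, against 530 and 781 in the untreated libraries. On these scaled levels the 3 libraries that received BOR were above both untreated libraries, and the VEM library lay between the untreated libraries. The place of BOR 2 rests on the scaling. It had 744 recovered reads at a depth of 18507606, against 807 at a depth of 18031385 in untreated 2. With values scaled to column totals the BOR log2 change was 0.20. Among all genes tested, 11.7% had both BOR libraries above both untreated libraries and 30.1% had VEM+BOR above both. The share with all 3 above both was not counted. The BOR mean was 910 ± 116 and the untreated mean 655 ± 177 (SD, n = 2 each), a gap larger than either SD. The limma log2 change was 0.50 (SE 0.47, adjusted p = 0.968) for BOR, -0.10 (SE 0.39, adjusted p = 1.0) for VEM and 0.42 (SE 0.39, adjusted p = 1.0) for VEM+BOR, and none passed. Without untreated 1 it was 0.21 for BOR, -0.38 for VEM and 0.16 for VEM+BOR, and without untreated 2 it was 0.79, 0.18 and 0.72, so 1 untreated library sets its size, and in VEM its sign.

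SLC39A10, the zinc importer, is annotated at chr2:195575977-195737702 on the plus strand and had 1 library far below the others. It stood at 711 and 53.4 normalised reads in the BOR libraries, 705 in VEM and 617 in VEM+BOR, against 709 and 391 in the untreated libraries. BOR 2 was 13.3-fold lower than BOR 1, resting on 40 reads against 778, and the other 5 libraries lay between 391 and 711. In the BOR pair 1.96% of 15438 genes had a lower difference than the -3.71 of SLC39A10 on the log2 scale. On the scaled levels BOR 2 was also the library with the highest MT1E, MT1F, MT1X and SLC30A1. That rank rests on the scaling. On recovered reads BOR 2 had 3077, 566, 570 and 744 for these genes, below the 3657, 685, 702 and 807 of untreated 2. Pearson's r of SLC39A10 over the 6 libraries was -0.761 with MT1E, -0.841 with MT1F, -0.764 with MT1X and -0.632 with SLC30A1, as a description of scaled levels. These r values include the outlying BOR 2, and the share of all genes with such values was not counted. BOR 2 was far the lowest library for other genes too, such as the myeloid marker PTPRC, at 265 against 2880 to 4514 in the other libraries. The limma log2 change was -1.42 (SE 1.18, adjusted p = 0.968) for BOR, 0.41 (SE 0.42, adjusted p = 1.0) for VEM and 0.22 (SE 0.42, adjusted p = 1.0) for VEM+BOR. On recovered reads the BOR value was -0.57 with edgeR and -0.53 with DESeq2, and the BOR mean was 0.694-fold the untreated mean. Without untreated 2 the value was -0.0093 for VEM and -0.20 for VEM+BOR. For BOR it was 0.44 (adjusted p = 1.0) without BOR 2 and -3.28 (adjusted p = 0.000300) without BOR 1, so the BOR value rests on which of its libraries is kept. Both fits assume that a lone BOR library varies like the untreated pair, whereas the BOR pair itself spread more widely, so their p-values carry no error between BOR libraries. Without BOR 1, 4201 genes were called in that comparison, against 0 with both libraries.

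**Figure D4:**
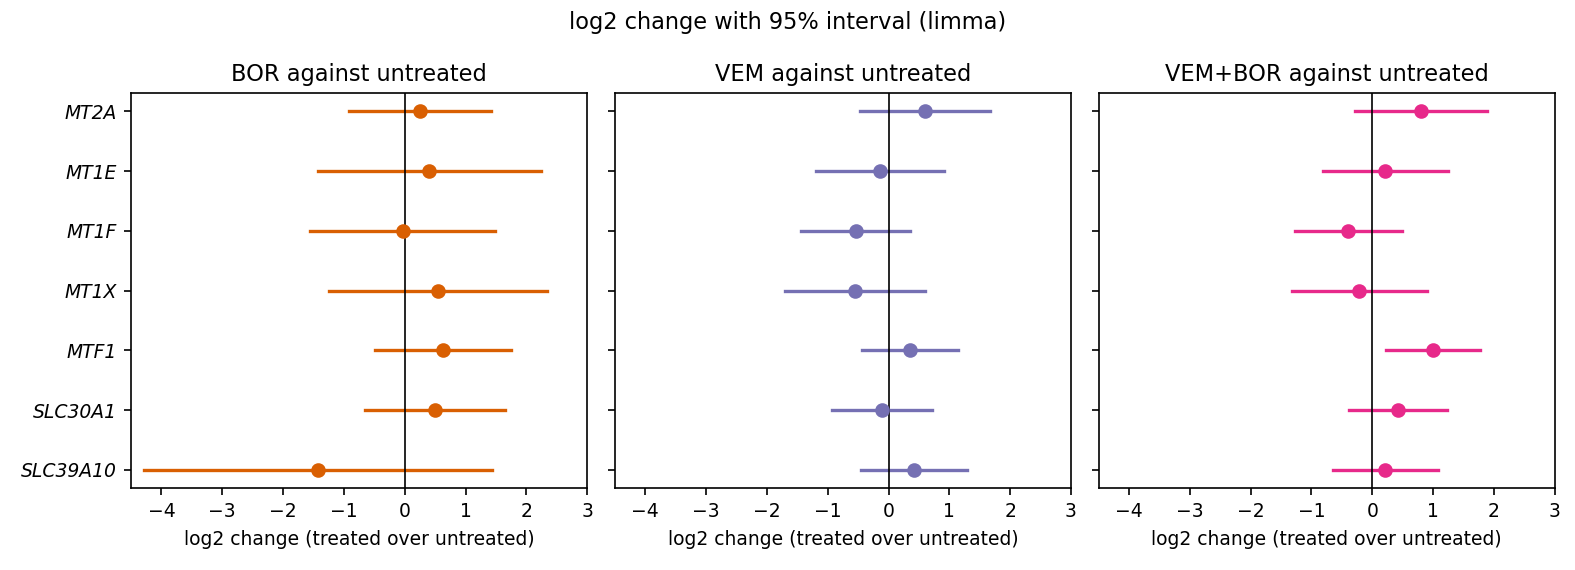
Log2 change, treated over untreated (horizontal axis), of the 7 genes with 95% intervals from limma, for BOR, VEM and VEM+BOR against untreated cells. The interval of MTF1 in VEM+BOR, from 0.22 to 1.77, is the one that leaves out zero, and that of SLC39A10 in BOR is the widest.

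Counted over the 7 genes, BOR gave 0 called by limma, where 0% of 15382 genes were called. At an unadjusted p under 0.05 the count was 0 of 7 (0.247% of all genes, 38 in number), and with edgeR and with DESeq2 on recovered reads 0 of 7 were called, with 0 and 28 genes called in all. MTF1 and SLC30A1 had both BOR libraries above both untreated libraries, 2 of 7 where 11.7% of all genes did so, and 0 of 7 had both below, where 8.24% did. For SLC30A1 this order rests on the deposited scaling, since BOR 2 had fewer recovered reads than untreated 2. The median log2 change of the 7 genes was 0.40, against 0.04 over all genes. Without BOR 1 the log2 changes were 0.88 for MTF1, 0.63 for SLC30A1, 0.52 for MT2A, 1.08 for MT1E, 0.60 for MT1F and 1.05 for MT1X. Without BOR 2 they were 0.38 for MTF1, 0.37 for SLC30A1, -0.018 for MT2A, -0.28 for MT1E, -0.67 for MT1F and 0.048 for MT1X. MTF1, SLC30A1 and MT1X were positive with either library, and MT2A, MT1E, MT1F and SLC39A10 did not keep 1 direction. The median was 0.63 without BOR 1, 0.048 without BOR 2, -0.34 without untreated 1 and 0.53 without untreated 2.

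VEM gave 0 of 7 called by limma, where 7 of 15689 genes were called (0.0446%, with 0.0382% higher and 0.00637% lower). At an unadjusted p under 0.05 the count was 0 of 7, against 2.54% of all genes, and no count test was run for VEM. The VEM library was above both untreated libraries for MT2A and MTF1, 2 of 7 against 30.3% of all genes, and below both for MT1F, 1 of 7 against 27.6%. The count of 2 above is near the background share. The median log2 change was -0.10, against 0.00 over all genes, and it was -0.38 without untreated 1 and 0.25 without untreated 2.

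VEM+BOR gave 0 of 7 called by limma, where 30 of 15606 genes were called (0.192%, with 0.173% higher and 0.0192% lower). With edgeR and with DESeq2 on recovered reads 0 of 7 were called, with 85 and 64 genes called in all. MTF1 was the 1 of 7 with an unadjusted p under 0.05 in limma, against 3.01% of all genes. The VEM+BOR library was above both untreated libraries for MT2A, MTF1 and SLC30A1, 3 of 7 against 30.1% of all genes, and below both for 0 of 7, against 27.9%. The median log2 change was 0.22, against 0.01 over all genes, and it was 0.16 without untreated 1 and 0.72 without untreated 2.

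Other genes of metal handling gave 0 calls in limma in any list and any comparison. Among other metallothioneins, 1 of the 15 named was tested: MT1L, a metallothionein pseudogene of the human genome, with 203 and 372 normalised reads in the BOR libraries, 368 in VEM and 267 in VEM+BOR, against 301 and 242 in the untreated libraries. Its log2 change was 0.03 for BOR, 0.44 for VEM and -0.03 for VEM+BOR, and the highest values were again spread over groups.

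Of the other zinc exporters of the SLC30 family, 5 of 9 were tested, with median log2 changes of 0.03 for BOR, -0.04 for VEM and 0.20 for VEM+BOR. SLC30A9, a mitochondrial zinc transporter, stood at 1154 and 208 normalised reads in the BOR libraries, 1099 in VEM and 1110 in VEM+BOR, against 1183 and 1064 in the untreated libraries. BOR 2 was thus far below the other 5 libraries for this gene, as for SLC39A10. Genes named from this list and those below were picked for large changes, which favours genes that differ in BOR 2. The share of all genes this low in BOR 2 was not counted, so no pattern shared by zinc transporters is shown. SLC30A6, which works in the secretory pathway, showed the same order in the BOR pair, with 751 and 244, and stood at 445 in VEM and 695 in VEM+BOR, against 540 and 667 in the untreated libraries. SLC30A3, a vesicular zinc transporter, went the other way in that pair, with 471 and 895, and stood at 575 in VEM and 383 in VEM+BOR, against 713 and 440 in the untreated libraries.

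Of the other zinc importers of the SLC39 family, 10 of 13 were tested, with medians of 0.22 for BOR, 0.12 for VEM and 0.19 for VEM+BOR. In each comparison the treated libraries were above both untreated libraries for 4, 5 and 5 of the 10, in the order BOR, VEM, VEM+BOR, and below both for 1, 2 and 2. Over all genes the shares above were 11.7%, 30.3% and 30.1%, and the shares below were 8.24%, 27.6% and 27.9%. SLC39A14, which takes up zinc and other metals, stood at 6186 and 12603 normalised reads in the BOR libraries, 5352 in VEM and 6354 in VEM+BOR, against 4232 and 4548 in the untreated libraries. All 4 treated libraries were above both untreated libraries, with BOR 2 far above the other 5. The BOR log2 change was 1.01 (SE 0.52) with an unadjusted p of 0.0978 and an adjusted p of 0.968 in limma. SLC39A8, a close relative with similar substrates, stood at 1715 and 2680 in the BOR libraries, 1638 in VEM and 1915 in VEM+BOR, against 1166 and 1612 in the untreated libraries, again with all 4 treated libraries on top. The share of all genes with all 4 on top was not counted, and the importers named here were picked for large changes. SLC39A6, an importer that pairs with SLC39A10 in other cells, stood at 1736 and 421 in the BOR libraries, 1414 in VEM and 1763 in VEM+BOR, against 1199 and 1403 in the untreated libraries. BOR 2 was the lowest library for SLC39A6, as for SLC39A10.

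Copper handling genes, 9 of 10 tested, had medians of 0.05 for BOR, -0.08 for VEM and -0.08 for VEM+BOR. SLC31A1, the main copper importer, stood at 1007 and 2425 normalised reads in the BOR libraries, 1350 in VEM and 1281 in VEM+BOR, against 921 and 1011 in the untreated libraries, and only BOR 1 failed to stand above both untreated libraries. ATP7A, a copper exporter, stood at 251 and 42.7 in the BOR libraries, 134 in VEM and 173 in VEM+BOR, against 212 and 145 in the untreated libraries. ATP7B, its relative, stood at 423 and 215 in the BOR libraries, 468 in VEM and 309 in VEM+BOR, against 513 and 218 in the untreated libraries.

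Iron handling genes, 11 of 12 tested, had medians of 0.04 for BOR, 0.08 for VEM and -0.10 for VEM+BOR. TFRC, the transferrin receptor, stood at 10210 and 5109 normalised reads in the BOR libraries, 8881 in VEM and 13628 in VEM+BOR, against 5668 and 7732 in the untreated libraries. VEM+BOR was the highest, with a log2 change of 1.03 (SE 0.46), an unadjusted p of 0.0348 and an adjusted p of 1.0 in limma. IREB2, which binds iron-responsive RNA elements, stood at 1983 and 227 in the BOR libraries, 1548 in VEM and 1893 in VEM+BOR, against 1610 and 1483 in the untreated libraries. SLC40A1, the iron exporter, stood at 584 and 57.4 in the BOR libraries, 505 in VEM and 491 in VEM+BOR, against 439 and 341 in the untreated libraries. Both were lowest in BOR 2 by a wide margin.

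Metal stress genes, 9 of 9 tested, had medians of 0.11 for BOR, 0.11 for VEM and 0.17 for VEM+BOR. SLC7A11, the cystine importer, stood at 426 and 658 normalised reads in the BOR libraries, 1318 in VEM and 1370 in VEM+BOR, against 274 and 502 in the untreated libraries. Both VEM-containing libraries were above the other 4, with log2 changes of 1.82 (SE 0.42, adjusted p = 0.335) for VEM and 1.87 (SE 0.42, adjusted p = 0.0778) for VEM+BOR in limma, neither past the threshold. HMOX1, a haem-degrading enzyme that responds to cadmium and other metals, stood at 106 and 233 in the BOR libraries, 109 in VEM and 77.8 in VEM+BOR, against 134 and 84.2 in the untreated libraries, with no treated group apart from the untreated pair except VEM+BOR, which lay just below both. DNAJB1, a heat shock co-chaperone, stood at 2833 and 7340 in the BOR libraries, 2660 in VEM and 2883 in VEM+BOR, against 2461 and 2430 in the untreated libraries, all 4 treated libraries being above both. Of all genes, 11.7% had both BOR libraries above both untreated libraries, 30.3% had VEM above both and 30.1% had VEM+BOR above both. The shares with the joint orders of DNAJB1 and SLC7A11 were not counted, and the genes named here were picked for large changes.

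**Figure D5:**
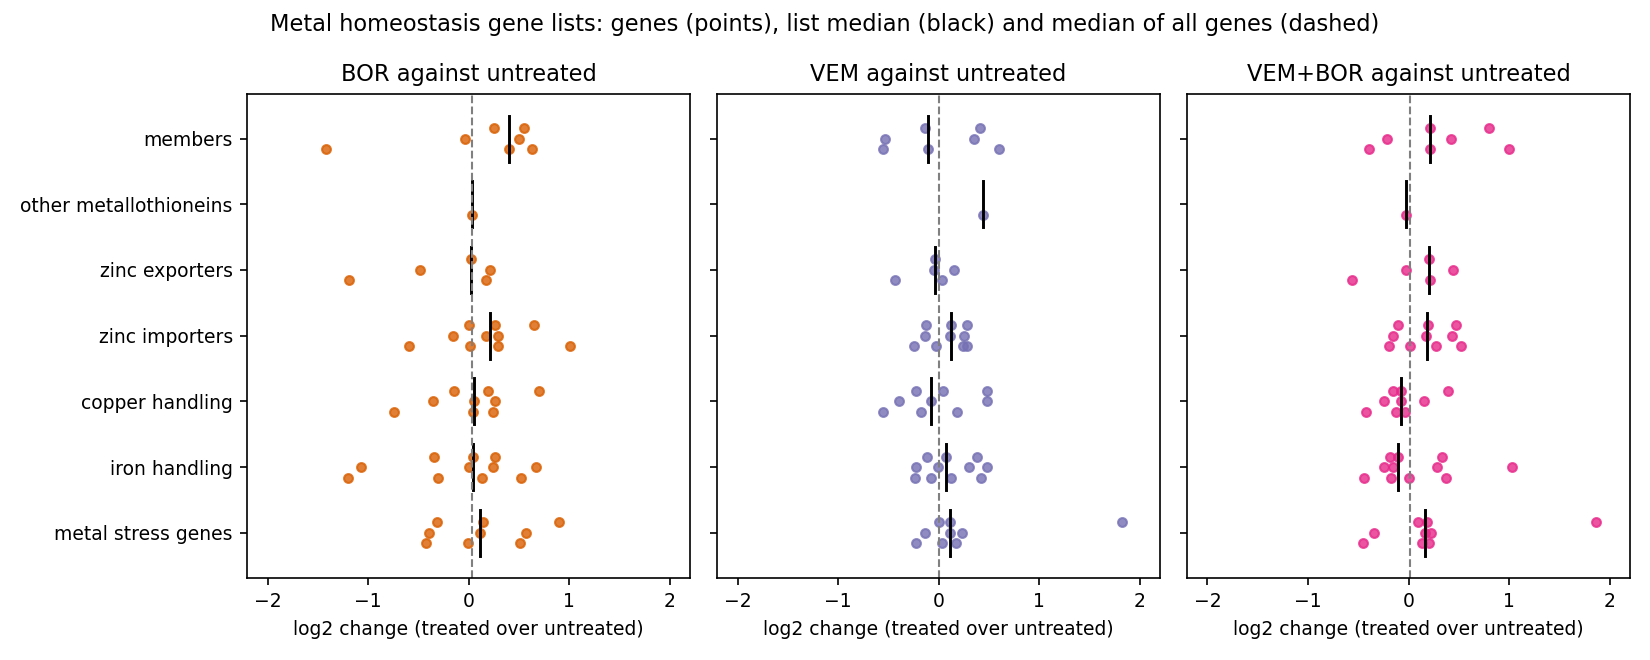
Log2 change, treated over untreated (horizontal axis), of each tested gene of the 7 described genes and of 6 metal handling lists (rows), for BOR, VEM and VEM+BOR. Black bars are list medians and the dashed line is the median of all genes. The described genes have medians of 0.40, -0.10 and 0.22, and the point furthest right in VEM and VEM+BOR is SLC7A11.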

How the data were processed

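Gene expression was analysed in 6 SKM-1 libraries, grouped by the treatment label. Members and lists were chosen with earlier results of these data known. The authors deposited 3 tables, each with a normalised signal per gene, which is read counts divided by 1 factor per library, and the authors' deposited log2 fold changes, p-values and adjusted p-values. Per the submitters' processing notes, which state no order or purpose, edgeR 3.22.5, DESeq2 1.20.0, featureCounts 1.5.0-p3, HISAT2 2.0.5 and CASAVA were used. The authors' genome build is not given in these sources, but coordinates equal those of GENCODE release 29 for 26676 of 26704 genes. In each column 100% of values were whole reads within 0.001, although for VEM the step was too near 1 to be checked.

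The test planned for normalised values was used: limma 3.58.1 in R 4.3.3 with a trend on log2(value + 1), which understates changes of low genes, within each table, for genes with a mean of at least 10, two-sided. Levels across libraries used median-of-ratios factors over 23519 genes. Named list genes were those with the largest changes, up to 3 per list, with a mean of at least 50, and 5 genes for likeness. Alternatives were other pseudocounts, filters and scalings, 1 fit over all libraries, no trend, left-out libraries, and, on recovered reads, DESeq2 1.42.0 and edgeR 4.0.16. Marker lists for T cells, erythroid cells and hepatocytes were not analysed here.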

Additional observations from a re-analysis of the deposited data

How the results depend on the processing

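Of 280 values of single genes under alternatives, 260 kept their direction and side of the threshold. Among the 280 are VEM and VEM+BOR values from fits over all libraries without a BOR library, whose log2 changes could not differ from the 1 fit over all libraries. Fits with no filter, with a higher filter and with no trend are also among them. Their log2 changes equal the main ones by construction, so only their error and adjustment could differ. The 260 is therefore not a measure of how firm the directions are. The count of the 7 genes called stayed at 0 under every alternative run except for BOR without BOR 1, where it was 1 (SLC39A10). With an untreated library left out, the VEM and VEM+BOR fits took their error from the BOR pair, whose spread was wider. Calls in those fits therefore do not show how firm the VEM and VEM+BOR results are. No paired analysis was run, because the numbers given to replicates follow sample order and the labels state no pairing. VEM had no count test, since its reads could not be checked.

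Without leaving out a library, the direction turned for MT2A in BOR (-0.049 with column totals), MT1F in BOR (0.021 with DESeq2) and MT1E in VEM+BOR (-0.056 with edgeR, -0.040 with DESeq2). The metallothionein sum in BOR was -0.053 with column totals. With 1 library left out, BOR values ranged from -0.47 to 1.27 for MT1E, -0.34 to 1.44 for MT1X, -0.67 to 0.60 for MT1F, -0.018 to 0.52 for MT2A and -3.28 to 0.44 for SLC39A10. VEM values ranged from -0.99 to 0.74 for MT1E, -1.43 to 0.34 for MT1X, -0.94 to -0.12 for MT1F, -0.38 to 0.18 for SLC30A1 and -0.0093 to 0.85 for SLC39A10. VEM+BOR values ranged from -0.63 to 1.09 for MT1E, -0.79 to 0.031 for MT1F, -1.09 to 0.68 for MT1X and -0.20 to 0.66 for SLC39A10. The sum ranged from -0.11 to 0.57 in BOR, 0.19 to 0.73 in VEM and 0.40 to 0.94 in VEM+BOR.

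Calls over all genes in BOR were 28 with DESeq2 and 0 to 4201 with a library left out. In VEM they were 40 with column totals and 0 with no filter, 1 fit, no trend or an untreated library left out. In VEM+BOR they were 89 with column totals, 51 with TMM, 85 with edgeR, 64 with DESeq2 and 0 with no filter, 1 fit, no trend or an untreated library left out. With an untreated library left out, the only replicate error in the VEM and VEM+BOR fits came from the BOR pair. The 1 fit over all libraries drew its error from the BOR and untreated pairs. The cause of the differing counts was not tested. Fits without BOR 1 or BOR 2 over all libraries, chosen after seeing the data, called 0 of the 7 genes in VEM and in VEM+BOR. Dropping a BOR library cannot move the VEM or VEM+BOR log2 changes of the 1 fit, so only their error could differ. With 1 or 2 libraries a group, precision is low: the median SE of a log2 change over all genes was 0.60 for BOR, 0.43 for VEM and 0.43 for VEM+BOR.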
